A study of Mus musculus with 2 samples.

Results

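Mast cell genes were compared between PGC-1β(i)skm-/- and control gastrocnemius, to see whether other genes of this cell type follow Cpa3, a mast cell protease with a higher signal in the mutants. The 10 genes, chosen as proteases, receptors and granule genes of mast cells, were found through the gene symbols of the array annotation, and each had a single probe set among 19936 named nuclear genes. The list was chosen by the log2 difference of Cpa3 between these same arrays, with differences of other genes known too, so that all values of its members are given as a description.

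The experiment consisted of 2 Affymetrix Mouse Gene 1.0 ST arrays, 1 for PGC-1β(i)skm-/- and 1 for control muscle, each hybridized with RNA pooled from 3 male C57BL/6 mice that were 8 weeks old. Both genotypes carried floxed PGC-1β L2/L2 alleles and received, from the age of 7 weeks, 5 daily tamoxifen injections of 1 mg. Mutants carried in addition the HSA-Cre-ERT2 transgene, whose human skeletal actin elements direct the tamoxifen-dependent recombinase selectively to myofibres, so that mast cells of the tissue are not its target. Controls were without the transgene, although the sample labels name their genotype wild-type, and an effect of the transgene cannot be told apart from that of the deletion. With 1 array per genotype there is no error between mice and no test was made.

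Mast cells are resident immune cells of connective tissue, where they lie along vessels, nerves and tendons. Their granules hold histamine, heparin and large amounts of proteases, namely carboxypeptidase A3, chymases and tryptases. Crosslinking of IgE bound to its high-affinity receptor releases the granules, the receptor Kit sustains the cells, and the transcription factor GATA2 is required for their formation.

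Signals were compared as the ratio of mutant over control, with 1.2 and 0.8 as the thresholds of the methods. In log2 the lower threshold is further from 0 than the upper one. Of the 10 mast cell genes, Cpa3 and Mcpt4 (2 genes) reached 1.2 or more, and 0 had a ratio of 0.8 or less. Among all named nuclear genes, 1.64% had a ratio of 1.2 or more and 0.652% a ratio of 0.8 or less. Genes of a mean log2 signal of 5 to 7, where 7 of the 10 lie, reached 1.2 more often, in 2.68% of 6940. Without Cpa3, for which the list was chosen, 1 of the 9 other members reached 1.2. At a ratio of 1.5 or more there was 1 member, Cpa3, which is itself among the 4 genes (0.0201%) at that ratio. At 1.1 or more there were 3 members, with Tpsb2, against 10.5%. The members fell evenly on both sides of 0, with 5 above and 5 below, against 49.6% above 0 for all genes. Their median log2 difference was 0.02, and 9 of them without Cpa3 had a median of −0.03, beside −0.0006 for all genes. The 3 highest values were those of proteases, Cpa3 among them, and the 2 other proteases were below 0.

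Cpa3, which encodes the carboxypeptidase that trims peptides in the granules of mast cells, had a log2 signal of 6.86 in PGC-1β(i)skm-/- and 6.26 in control muscle. This is a ratio of 1.53 and a log2 difference of 0.61, the highest of all 19936 genes. The genes closest to it in this difference, among those whose mean log2 signal reached 6, were Prg4 (0.60), Chad (0.60), Angptl7 (0.59), C1ra (0.56) and Klf4 (0.52), a likeness that rests on 2 arrays. None of these 5 is a gene particular to mast cells. Prg4 encodes lubricin, Chad a protein of cartilage matrix and C1ra a complement protease.

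Mcpt4, encoding the chymase of connective tissue mast cells mMCP-4, had log2 signals of 5.99 in the mutant and 5.59 in the control, a ratio of 1.33. Its log2 difference of 0.41 was at rank 34 of all genes, and 9 of 3587 genes within 0.5 of its mean log2 signal were as high or higher, Mcpt4 included. Tpsb2, the gene of the tryptase mMCP-6, had 6.56 in the mutant and 6.32 in the control. With a ratio of 1.19 it lay just below the threshold. Differences of its 0.25 or higher were found in 427 of all genes and in 3.49% of the genes within 0.5 of its mean log2 signal. In all, 3 of the 5 proteases, Cpa3 among them, had a higher signal in the mutant pool, by 18.7% to 52.5%. Apart from Cpa3, for which the list was chosen, Mcpt4 and Tpsb2 were above 0 and Cma1 and Tpsab1 below. This is close to the 49.6% of all genes above 0.

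For the remaining proteases the signals of both arrays lay close together. Cma1, which encodes mMCP-5, a chymase stored with carboxypeptidase A3, had 5.22 in the mutant and 5.25 in the control. Tpsab1, the gene of the tryptase mMCP-7, had 5.22 in the mutant and 5.24 in the control. RefSeq lists Tpsab1 of the C57BL/6J assembly as a transcribed pseudogene, and mMCP-7 protein is known to be absent in this strain. Chymase and tryptase genes are close relatives of each other, and the sequences of the array probes were not used here, so that cross-hybridization between them was not tested.

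**Figure D1:**
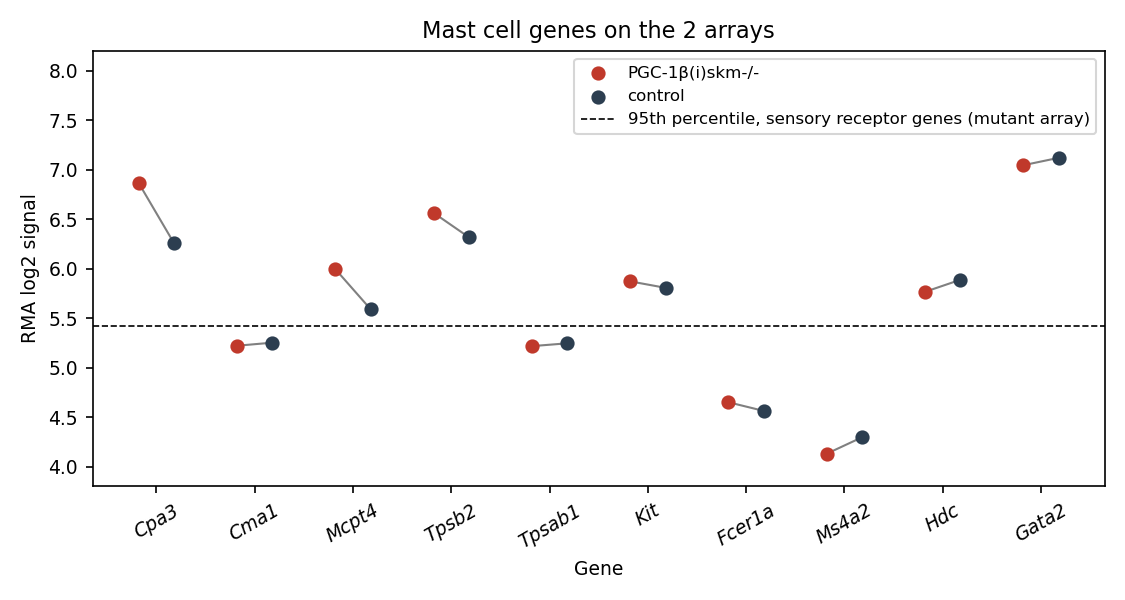
Each pair of points gives the RMA log2 signal (vertical axis) of 1 mast cell gene (horizontal axis) in PGC-1β(i)skm-/- (red, left of each pair) and control muscle (dark, right), 1 array of 3 pooled mice each, with a dashed line at the 95th percentile of sensory receptor genes on the mutant array. Cpa3, Mcpt4 and Tpsb2 have the steepest lines, with log2 differences of 0.61, 0.41 and 0.25, and Cma1, Tpsab1, Fcer1a and Ms4a2 lie under the dashed line.

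The upstream sequences of Cpa3 and Mcpt4, the members past the threshold, are shown with that of Cma1, the other chymase gene among the members, from RefSeq on GRCm38.p6. Cma1 and Mcpt4 are of the chymase cluster of chromosome 14, with 4 protein-coding genes between them. The table of promoters held 8 of the 10 members. Capitals mark matches to a motif bound by GATA factors, searched on both strands as GATA with A or T before it and A or G after it, the only motif searched. Each sequence runs 5′ to 3′ along the gene, which is on the minus strand, and ends at the annotated gene, at chr3:20242210-20242431 for Cpa3, chr14:56062311-56062560 for Mcpt4 and chr14:55944676-55944925 for Cma1. For Cpa3, 28 bases before the start that RefSeq counts to the gene are left out.
Cpa3: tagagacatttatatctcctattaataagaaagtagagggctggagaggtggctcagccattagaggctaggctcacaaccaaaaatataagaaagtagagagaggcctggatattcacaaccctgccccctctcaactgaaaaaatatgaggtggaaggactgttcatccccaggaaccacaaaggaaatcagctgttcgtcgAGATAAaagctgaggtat
Mcpt4: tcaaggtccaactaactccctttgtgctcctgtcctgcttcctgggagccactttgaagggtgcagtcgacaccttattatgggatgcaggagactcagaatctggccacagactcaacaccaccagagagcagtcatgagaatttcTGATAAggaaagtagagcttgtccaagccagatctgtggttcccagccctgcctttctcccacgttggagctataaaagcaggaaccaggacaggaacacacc
Cma1: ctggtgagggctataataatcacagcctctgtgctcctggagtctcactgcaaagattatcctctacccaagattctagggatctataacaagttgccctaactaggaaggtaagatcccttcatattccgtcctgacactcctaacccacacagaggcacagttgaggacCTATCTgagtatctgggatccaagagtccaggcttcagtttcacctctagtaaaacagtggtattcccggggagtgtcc
Each of the 3 windows of 250 bases before the start held 1 match, at 46 bases before the start in Cpa3, 103 in Mcpt4 and 79 in Cma1, where it is on the opposite strand. In all, 6 of the 8 members in the table held a match, against 27.1% of 27025 genes, and Kit and Gata2 had none. The presence of these letters is no measure of binding.

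Receptor genes of mast cells had smaller differences than Cpa3 and Mcpt4. Kit, the receptor for stem cell factor, had log2 signals of 5.87 in the mutant and 5.81 in the control, a ratio of 1.05. Fcer1a, encoding the subunit of the IgE receptor that binds IgE, had 4.65 in the mutant and 4.56 in the control. Ms4a2, encoding its signal-amplifying beta subunit, had 4.13 in the mutant and 4.30 in the control, and its log2 difference of −0.17 was the lowest of the 10. Both IgE receptor genes were dim, and the sign of their differences cannot be read at such signals.

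Hdc, encoding the histidine decarboxylase that makes histamine, had log2 signals of 5.76 in the mutant and 5.89 in the control, a ratio of 0.919. Gata2, the transcription factor, which endothelial and haematopoietic progenitor cells express as well, had 7.04 in the mutant and 7.12 in the control, a ratio of 0.949. Neither gene followed Cpa3 on these arrays. In pooled whole muscle, more mast cells and more RNA of a gene per mast cell cannot be told apart. With 1 array per genotype, neither can be told apart from variation between pools or arrays.

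**Figure D2:**
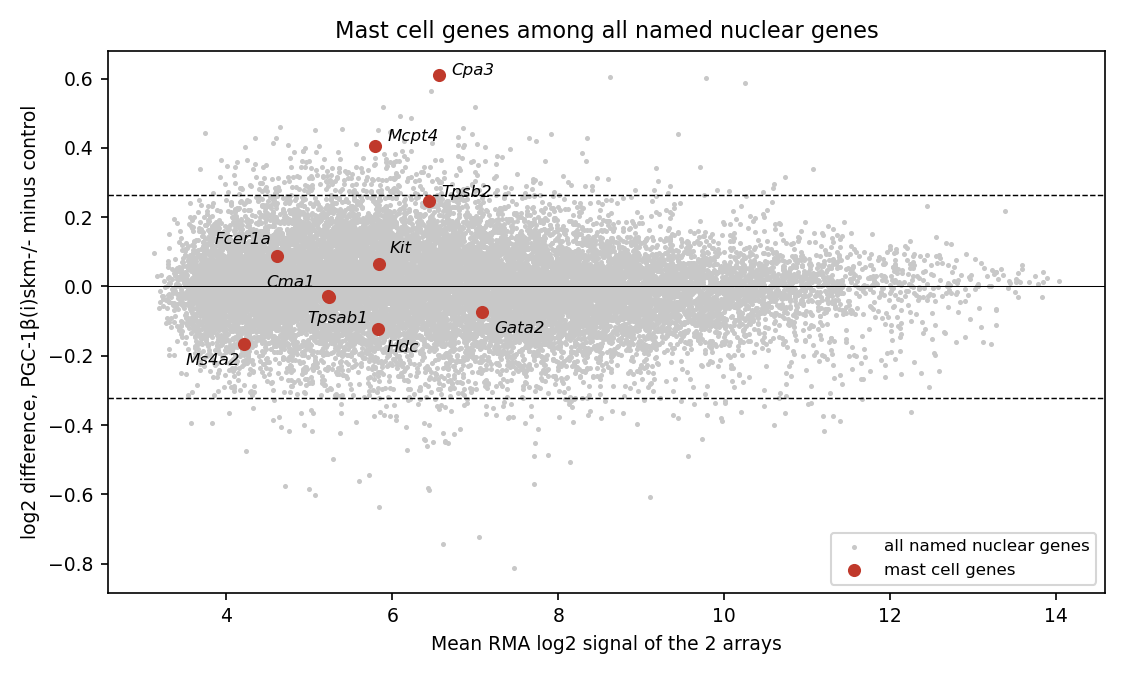
All 19936 named nuclear genes are plotted by the mean log2 signal of both arrays (horizontal axis) and by mutant minus control log2 difference (vertical axis). The 10 mast cell genes are red, and dashed lines mark ratios of 1.2 and 0.8. Cpa3 is the highest of all points at 0.61, Tpsb2 lies just under the upper line, and the 7 members below it lie between −0.17 and 0.09.

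Several of these signals were low. No measure of detection was available, and signals of different probe sets cannot be ordered as levels of their genes. As a guide to the signal of genes that muscle is not expected to express, 1224 olfactory, vomeronasal and taste receptor genes had a median log2 signal of 4.03 on the mutant and 4.02 on the control array, and 95th percentiles of 5.42 and 5.39. The mean signals of Cma1, Tpsab1, Fcer1a and Ms4a2 lay under the 95th percentile of these genes, 5.42, so that their signals could not be told from background by this measure. Cpa3, Mcpt4, Tpsb2, Kit, Hdc and Gata2 were above it on both arrays, which does not show that they were detected. Of 19 measured genes of eye, testis, pancreas, kidney and liver, 12 had a mean signal under this percentile. Apoa2 (6.69), Aqp2 (7.06) and Cyp2e1 (9.04), the highest, were among those above it. The differences of the sensory receptor genes themselves lay between −0.17 and 0.18 for the 5th and 95th percentiles, a range that holds all members except Cpa3, Mcpt4 and Tpsb2.

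Other genes of mast cell biology were taken from 7 further lists. Of 113 genes listed, 105 were measured, and 1 had a ratio of 1.2 or more and 0 a ratio of 0.8 or less, beside 1.64% and 0.652% of all genes. Of these, 54 were above 0 and 50 below, with a median log2 difference of 0.01. Among all genes 49.6% were above 0, the share that goes beside the counts of each list below. The gene past the threshold was C3ar1, the receptor for complement C3a, which macrophages express as well, with log2 signals of 6.98 in the mutant and 6.60 in the control. A total of 36 of the 105 had a mean signal under the 95th percentile of the sensory receptor genes.

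The other proteases of the chymase and tryptase clusters and of the carboxypeptidase A family did not reach the threshold, with 6 of 13 above 0 and differences between −0.14 and 0.16. Mcpt1 and Mcpt2, the chymases of mucosal mast cells, had log2 signals of 3.99 and 4.14 in the mutant, against 3.97 and 4.04 in the control. Ctsg, encoding cathepsin G, had 4.91 in the mutant and 4.75 in the control. All but 1 of the 13 genes of this list had a mean signal under the 95th percentile of the sensory receptor genes.

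For the signalling of the IgE receptor, 9 of 13 genes were above 0, beside 49.6% of all genes, with a median of 0.05. Fcer1g, the gamma subunit shared with Fc receptors of macrophages, had a log2 difference of 0.13, the adaptor Vav1 0.17 and the phospholipase Plcg2 −0.17. Of 16 cytokines and receptors that act on mast cells, 9 were above 0, with a median of 0.06. Il33, an alarmin of stromal cells, had a difference of 0.21, Il4 0.22, Il4ra 0.20 and Kitl, encoding stem cell factor, the ligand of Kit, 0.11. Il1rl1, the receptor of IL-33, was not analysed here.

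Granule genes other than proteases had a median of 0 over 15 genes, with 7 above 0 and 7 below. Srgn, encoding the serglycin core protein that binds granule proteases, had log2 signals of 11.03 in the mutant and 11.04 in the control. Slc18a2, the transporter that loads histamine into granules, had 4.65 in the mutant and 4.62 in the control, and Tph1, which starts serotonin synthesis, had 5.59 in the mutant and 5.88 in the control. Of the enzymes and receptors of eicosanoids, 7 of 11 were above 0, among them Alox5, the 5-lipoxygenase of leukotriene synthesis, with a difference of 0.16. Of the synthases of prostaglandin D, Ptgds had a difference of 0.20, the largest of the list, and Hpgds, at a dim signal, −0.10.

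Of the transcription factors of mast cells, 5 of 16 were above 0, beside 49.6% of all genes, with a median of −0.02. Mitf, a factor required in mast cells and melanocytes that is expressed in muscle as well, had log2 signals of 8.13 in the mutant and 8.45 in the control. Its difference of −0.32 was the lowest of all 105 genes, and its ratio of 0.801 lay just short of the threshold of 0.8. Gata1 had a difference of 0.18 and Spi1, encoding PU.1, −0.21. Of the receptors of mast cells and their secretion machinery, 11 of 21 were above 0. Mrgprb1, a receptor gene of the Mrgprb family, had a difference of 0.24 at dim log2 signals of 4.56 in the mutant and 4.33 in the control. Mrgprb2, the receptor for basic secretagogues on mast cells, had 3.88 in the mutant and 3.79 in the control.

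**Figure D3:**
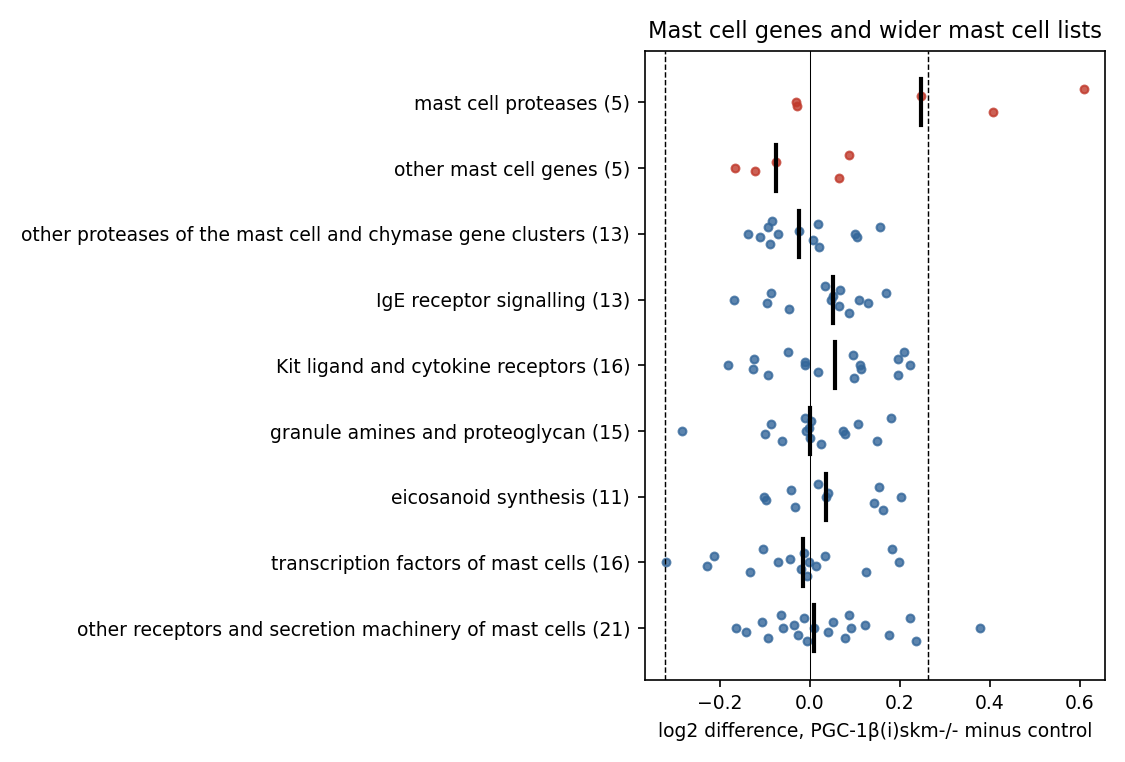
Points give mutant minus control log2 differences (horizontal axis), 1 point a gene, for the mast cell genes (red) and the 7 further lists (blue), with the number of genes, black bars at the medians and dashed lines at ratios of 1.2 and 0.8. The median of the 5 proteases is 0.25, but these hold Cpa3 (0.61), for which the list was chosen. Mcpt4 is at 0.41, Tpsb2 at 0.25, and Cma1 and Tpsab1 are both at −0.03. The medians of the 7 lists lie between −0.02 and 0.06, and C3ar1 is the only blue point above the upper line.

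Markers of other cells of muscle were set beside these genes, in lists also written with earlier results known. Markers of fibroblasts and tendon were higher in the mutant pool in 14 of 14 genes, with a median log2 difference of 0.23 and 6 at a ratio of 1.2 or more, beside 49.6% above 0 and 1.64% at 1.2 or more for all genes, and their mean log2 signal was 9.52 in the mutant and 9.26 in the control. The 6 past the threshold were Prg4, Chad, Comp, Fmod, Tnmd and Thbs4, and Prg4 and Chad are also among the genes closest to Cpa3. The defining genes Col1a1, Pdgfra and Dcn, with differences of 0.18, 0.05 and 0.14, did not reach it. Macrophage markers were above 0 in 13 of 15 genes, with a median of 0.12 and 5 at a ratio of 1.2 or more, and a mean of 7.03 in the mutant and 6.88 in the control. Cd68, Csf1r and Adgre1 had differences of 0.06, 0.27 and 0.14. The largest of the list were C1qa (0.37), C1qb (0.36) and Mrc1 (0.31), and 2 genes were below 0. Both lists were higher on the array on which Cpa3, Mcpt4 and Tpsb2 were higher. Since the lists were written with earlier results known, their counts and the overlap with genes close to Cpa3 are a description only. Their part in the higher signals of these 3 genes was not tested.

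Basophils and eosinophils share genes with mast cells. Their markers were above 0 in 3 of 7 and 3 of 6 genes, with medians of −0.05 and −0.03. Mcpt8, the basophil protease, had log2 signals of 4.35 in the mutant and 4.43 in the control, Prss34, also of basophils, 5.07 in the mutant and 5.17 in the control, and Epx, the eosinophil peroxidase, 4.59 in the mutant and 4.68 in the control. These genes lay under the 95th percentile of the sensory receptor genes. Leukocyte genes in general were above 0 in 8 of 10, beside 49.6% of all genes, with a median of 0.09 and none past the threshold. Skin markers, where mast cells are abundant, had a median of 0.01 over 9 genes, with Krt14 at 0.05 and Krt10 at 0.31. Of these 9, only Krt10 reached a ratio of 1.2, beside 1.64% of all genes. Endothelial markers had a median of 0.03 over 10 genes. Lists of lymphocytes, neutrophils, adipocytes, melanocytes and erythroid cells had medians between −0.07 and 0.09, and of their genes Epor (0.32) reached a ratio of 1.2. Myofibre markers, with mean log2 signals of 13.0 to 13.9, differed by 0.04 or less, so that the labelled tissue was present on both arrays.

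**Figure D4:**
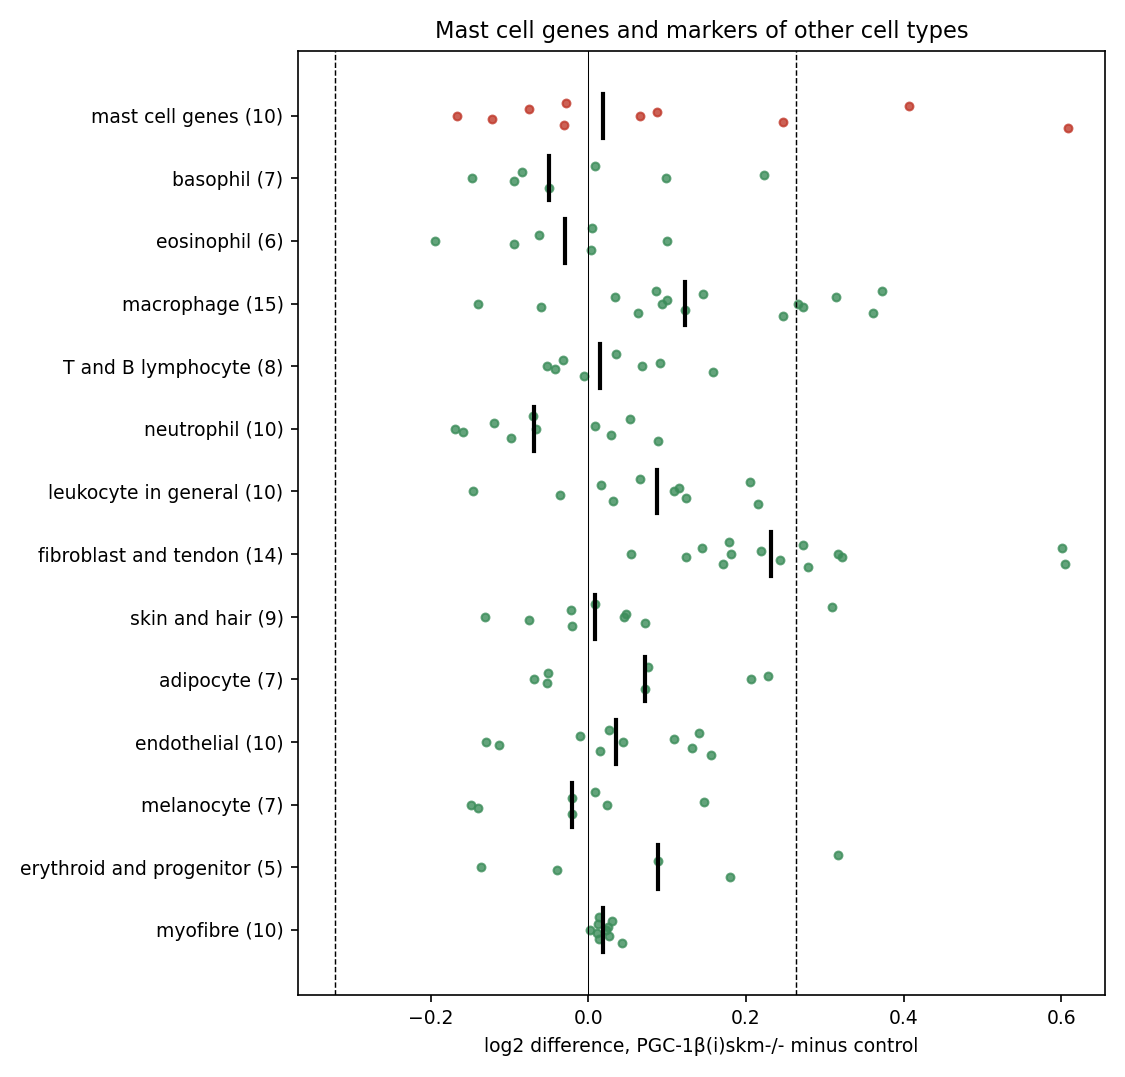
Points give mutant minus control log2 differences (horizontal axis), 1 point a gene, for the 10 mast cell genes (red) and for lists of markers of other cell types (green), with the number of genes, black bars at the medians and dashed lines at ratios of 1.2 and 0.8. The mast cell genes are spread from −0.17 to 0.61 around a median of 0.02, whereas all 14 fibroblast and tendon markers lie above 0 with a median of 0.23.

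The arrays had median log2 signals of 6.02 in the mutant and 6.00 in the control over 35556 probe sets, and the standard deviation of the log2 difference over genes was 0.12, or 0.13 at mean signals of 5 to 7. Ppargc1b, the targeted gene, had 7.06 in the mutant and 7.87 in the control, a ratio of 0.569, measured with a probe set that covers the transcript and not only the deleted exon. With 2 arrays, the precision of every value given here is limited.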

How the data were processed

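Expression was measured in 2 pools of gastrocnemius RNA, grouped by the sample labels. The authors labelled cDNA from 150 ng of total RNA and read the scanned arrays with GeneChip Command Console 3.2. The deposited log2 signals were made from these by RMA in Expression Console 1.1. RMA equalizes the distribution of both arrays and compresses differences of dim probe sets. The sources used here name no genome build for the probe sets.

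Of 35556 probe sets, 21789 had 1 gene symbol, 1621 had several (not used), and 12146 were unlisted in the annotation. Symbols were updated by Entrez ID to RefSeq GRCm38.p6 (21698 matched), mitochondrial genes were left out, and 997 genes with more than 1 probe set were given that of highest mean signal. The ratio is 2 raised to the log2 difference, mutant minus control. No filter, test or error was applied, since there is 1 array per genotype.

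The members and lists were chosen with earlier results of these data known. Genes named are all 10 members, genes of the further lists past a threshold or among the 3 of largest difference, defining markers, and the 5 genes nearest to Cpa3. Genes of the further lists given to explain a pathway (Kitl, Hpgds, Gata1, Mcpt1, Mcpt2, Mrgprb2, Srgn, Slc18a2 and Krt14) were chosen with their values known. The alternatives were the mean or the most different probe set, probe sets of several genes, signal filters at 6 and 7, a loess curve (span 0.3) or the median subtracted, and other thresholds. The calculation was also run on simulated data whose shifted genes passed the thresholds by construction, so that this checks only the arithmetic. Python 3.11.15, pandas 2.3.3, numpy 2.4.6 and statsmodels 0.14.6 were used.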

Additional observations from a re-analysis of the deposited data

How the results depend on the processing

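The members are dim, and a filter on signal removes most of them. With a mean log2 signal of 6 or more, 3 of the 10 remained (Cpa3, Tpsb2 and Gata2), with 1 at a ratio of 1.2 or more, 2 above 0 and a median of 0.25. With 7 or more, only Gata2 remained, with 0 at 1.2 or more and 0 above 0, and 0.817% of all genes reached 1.2. At a ratio of 1.5 or more, 1 member was left, Cpa3. The median of the members, 0.02, was −0.0004 with a loess curve subtracted. No member at a ratio of 1.2 or more changed direction in the alternatives run, but these could hardly change it. Filters only drop genes, and with the loess curve subtracted Cpa3 was at 0.60 and Mcpt4 at 0.39. Each member has a single probe set, so that the choice of probe sets alters none of their values. The alternatives therefore give no measure of error between arrays. No paired analysis was possible because each genotype has 1 array.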
